A study of Mus musculus with 2 samples.

Results

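The 54 genes described here are those whose symbols begin with Nduf or mt-Nd, out of 32285 gene rows, and they cover complex I of the mitochondrial respiratory chain. The rule that picked them reads the symbol and no measured value: 37 nuclear subunits, 8 Ndufaf assembly factors and 7 mitochondrially encoded mt-Nd subunits, plus Ndufa4 and Ndufa4l2, which carry the name but are now counted with complex IV (Ndufa4) or as its paralogue. The data are single-cell RNA counts of mouse regulatory T (Treg) cells that had been stained with MitoTracker, a dye taken up by mitochondria, and then sorted into a dye-bright population, Mito-high, and a dye-dim population, Mito-low. Each population gave 1 library, so no difference below has a replicate check, and library and population cannot be told apart. The title of the series names copper and suppressive capacity as its subject. Tissue, strain, genotype, sex, age, number of animals, any treatment, the sorting gates and the variant of the dye are given in none of the sources used here.

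Complex I is the large L-shaped enzyme of the inner mitochondrial membrane that passes electrons from NADH to ubiquinone and pumps protons. Its matrix arm carries the flavin and the iron-sulfur clusters, and its membrane arm holds the proton channels, whose central subunits are all encoded by mitochondrial DNA. The remaining core subunits and all accessory subunits are made from nuclear genes, so the enzyme is put together from transcripts of both genomes with the help of assembly factors that leave the finished complex. In Treg cells, respiration is known as a major route of energy supply and a support of suppressive function.

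Cells were placed in classes by a few marker genes. Cycling cells had at least 3 of 6 proliferation genes (Pclaf, Birc5, Mki67, Top2a, Rrm2, Cdca8). Of the others, effector cells had at least 2 of 3 effector genes (Ccl5, Il10, Klrg1), resting cells had at least 1 UMI (a uniquely tagged RNA molecule) of Igfbp4, a growth factor binding protein gene, and the rest were called other. The Mito-high library held 561 cycling, 138 effector, 8836 other and 2678 resting cells, and the Mito-low library 38, 1522, 9931 and 185. Depth differed between classes as well as between libraries: the median cell had 16569 UMIs in the cycling class of Mito-high and 10631.5 in that of Mito-low, 8193 and 5272.5 in the effector class, and 6317.5 and 5582 in the resting class. All 10 measured Treg markers were detected in both libraries, with a summed level of 4125 CPM (UMIs per 1000000 UMIs) in the Mito-high library and 5866 CPM in the Mito-low library, and within classes between 3308 and 6852 CPM. The summed level of 8 B cell markers was 29.2 and 19.1 CPM in Mito-high and Mito-low, of 2 CD8 T cell markers 9.03 and 5.47 CPM, of 8 myeloid markers 84.9 and 106 CPM, of 4 NK cell markers 1.76 and 0.909 CPM, and of 6 erythroid and platelet markers 0.467 and 0.578 CPM. Ncr1, Pf4 and Ppbp were at 0 in both libraries. Of the barcodes, 38 occurred in both libraries, 35 of them among the kept cells.

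Nuclear complex I subunits stood highest in cycling cells and lowest in resting cells in both libraries. The mt-Nd transcripts had nearly the same share of UMIs in cycling, other and resting cells and a lower share in effector cells. In Mito-low the cycling value leaned on a few barcodes with a high mt- share. Summed over the 37 nuclear subunits, the Mito-high library had 6840 CPM in cycling, 6054 in effector, 5130 in other and 4625 CPM in resting cells. The Mito-low library had 6833 CPM in cycling, 5144 in effector, 4858 in other and 4493 CPM in resting cells. Cycling cells thus stood above resting cells by a log2 ratio of 0.56 (95% interval 0.55 to 0.58) in Mito-high and 0.60 (0.54 to 0.67) in Mito-low. Effector cells stood above resting cells by 0.39 (0.35 to 0.42) in Mito-high and by 0.20 (0.15 to 0.24) in Mito-low, and other cells by 0.15 and 0.11. The intervals of these ratios come from the UMI counts and do not hold any spread between animals or libraries. Among cells of 8000 to 16000 UMIs, the cycling over resting ratio in Mito-high was 0.44, and with the UMI total taken without mt-, ribosomal and antigen receptor genes the effector over resting ratio in Mito-low turned to −0.03. Among cells of 4000 to 6000 UMIs, the cycling over resting ratio in Mito-low turned to −0.22, from 4 cycling cells.

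**Figure D1:**
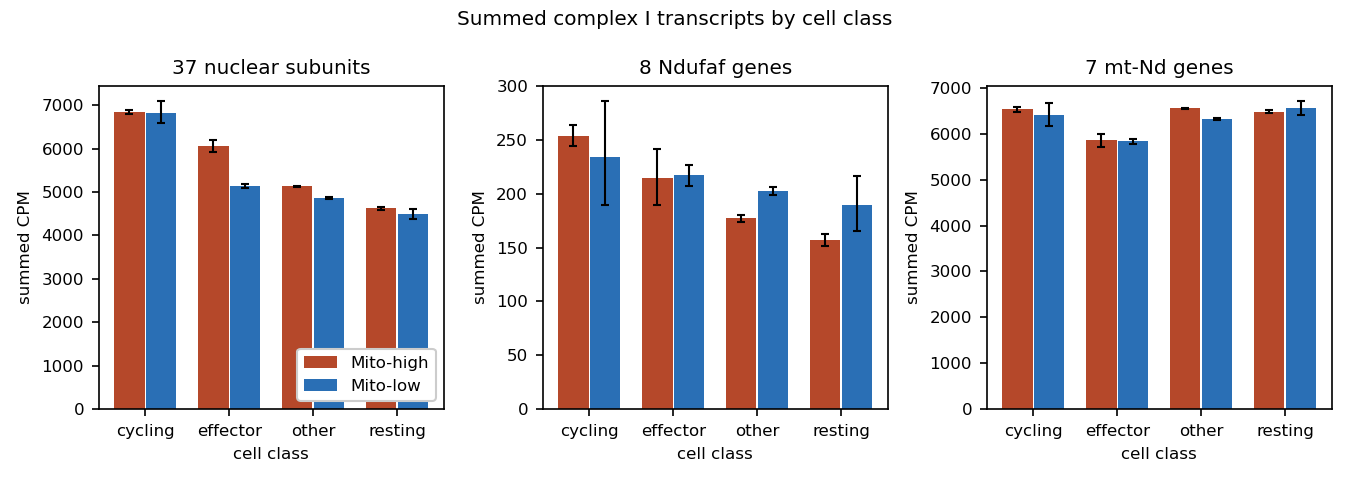
Summed CPM (vertical axis of each panel, from 0) of the nuclear subunits, the Ndufaf assembly factors and the mt-Nd genes by cell class (horizontal axis), with Mito-high left of Mito-low in each class and bars that mark the exact Poisson 95% interval. Nuclear subunits stand at 6840 and 6833 CPM in cycling cells and at 4625 and 4493 CPM in resting cells, while the mt-Nd sum lies between 5833 and 6555 CPM throughout.

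The 7 nuclear core subunits carry the redox centres of the matrix arm. Their sum was 680 CPM in cycling and 456 CPM in resting cells of Mito-high, and 655 and 436 CPM in those of Mito-low. Ndufv2, an iron-sulfur subunit of the NADH-binding module, had 156 CPM in cycling, 152 in effector, 113 in other and 96.99 CPM in resting cells of Mito-high, and 167, 99.9, 92.9 and 82.0 CPM in the same classes of Mito-low. Its cycling over resting log2 ratio was 0.69 in Mito-high and 1.02 in Mito-low. Ndufs8, which holds the iron-sulfur clusters that hand electrons towards ubiquinone, was at 125 CPM in cycling and 71.1 CPM in resting cells of Mito-high (0.81) and at 143 and 65.1 CPM in those of Mito-low (1.13). For both genes the cycling class was the highest of the 4 in each library. Ndufs7, which lines the ubiquinone pocket, had cycling over resting ratios of 0.27 in Mito-high and 0.37 in Mito-low.

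The core subunits did not all show the same order. Ndufs3, a structural subunit of the ubiquinone module, was at 99.9 CPM in cycling and 72.4 CPM in resting cells of Mito-high (0.46), but at 62.8 and 76.6 CPM in those of Mito-low (−0.29, interval −0.98 to 0.36). Ndufv1, the flavin-binding NADH dehydrogenase subunit, was at 60.8 CPM in cycling, 40.3 in effector and 38.5 CPM in resting cells of Mito-high. In Mito-low it was at 45.9 CPM in cycling, 34.5 in effector and 51.7 CPM in resting cells, so that its effector over resting ratio was 0.06 (−0.37 to 0.47) in Mito-high but −0.58 (−0.99 to −0.15) in Mito-low. The resting class of Mito-low held 58 UMIs of Ndufv1. Ndufs1, the largest iron-sulfur subunit and the core subunit with the lowest level, had 32.6 CPM in cycling and 23.4 CPM in resting cells of Mito-high (0.48) and 31.4 and 17.8 CPM in those of Mito-low (0.82), the last 2 values from 13 and 20 UMIs. Between effector and resting cells, the log2 ratios were 0.65 (Ndufv2), 0.56 (Ndufs8), 0.55 (Ndufs3), 0.40 (Ndufs1) and 0.24 (Ndufs7) in Mito-high. In Mito-low the same ratios were 0.28, 0.32, 0.02, 0.36 and 0.26.

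Between cycling and resting cells, the 9 accessory subunits of the matrix arm differed less in sum than the core or the membrane arm. Their summed cycling over resting log2 ratio was 0.32 in Mito-high and 0.37 in Mito-low, against 0.66 and 0.71 for the 21 accessory subunits of the membrane arm and 0.58 and 0.59 for the core. Effector over resting gave 0.27 and 0.15 for the matrix arm, 0.43 and 0.23 for the membrane arm and 0.44 and 0.11 for the core, so in Mito-low the core had the lowest ratio. One member of the matrix arm went against the rest: Ndufa6, a small subunit of the LYR family that binds the mitochondrial acyl carrier protein. It was at 174 CPM in cycling, 251 in effector, 253 in other and 246 CPM in resting cells of Mito-high, and at 225, 216, 227 and 245 CPM in those classes of Mito-low. Cycling cells of Mito-high were thus the lowest class for Ndufa6, with a log2 ratio to resting of −0.50 (−0.58 to −0.42), whereas the value in Mito-low, −0.12 (−0.48 to 0.22), had an interval that holds 0. Over all alternatives the Mito-high ratio lay between −0.72 and −0.37. Ndufa7 and Ndufs4, further accessory subunits of this arm, had 0.17 and 0.25 in Mito-high and 0.14 and 0.01 in Mito-low, where scaling by TMM (trimmed mean of M values, a factor that centres the bulk of genes) turned them to −0.12 and −0.25. Ndufa2, an accessory subunit with a thioredoxin-like fold, had 0.31 and 0.49. At the upper end stood Ndufa12, a late-joining subunit, at 0.91 in Mito-high but 0.24 (−0.03 under TMM) in Mito-low, and Ndufs6, a zinc-binding subunit, at 0.74 and 1.13. In effector cells of Mito-high, Ndufa9, a nucleotide-binding subunit at the joint of the 2 arms, was at 81.3 CPM against 48.2 CPM in resting cells (0.76), a ratio that turned to −0.07 under stricter class thresholds, which left 22 effector cells. The same comparison in Mito-low gave 55.2 and 54.4 CPM (0.02). Ndufa5, a subunit of the ubiquinone module, had effector over resting ratios of −0.08 in Mito-high and 0.50 in Mito-low. Ndufv3, a small subunit of the NADH-binding module, had 0.54 and 0.44 in the same comparison.

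Among the membrane arm subunits, Ndufb8, Ndufb7 and Ndufc1 had the highest cycling over resting ratios in Mito-high. Ndufb8, at the far end of the membrane arm, was at 262.5 CPM in cycling, 174.5 in effector, 149 in other and 124 CPM in resting cells of Mito-high, and at 280.4, 143, 135 and 87.3 CPM in those classes of Mito-low. Its log2 ratio of cycling over resting was 1.09 (1.01 to 1.17) in Mito-high and 1.68 (1.28 to 2.09) in Mito-low, where 116 UMIs stood in cycling and 98 in resting cells and where the 4 cycling cells of 4000 to 6000 UMIs gave −0.42. Ndufb7, a subunit on the intermembrane side with paired cysteines, was at 353 CPM in cycling, 322 in effector, 216 in other and 174.5 CPM in resting cells of Mito-high, and at 404, 257, 225 and 187 CPM in Mito-low. Its ratios were 1.02 (0.95 to 1.08) and 1.11 (0.81 to 1.41), and its order of classes was the same in both libraries. Ndufc1, a small subunit placed near mt-Nd2, was at 166 CPM in cycling and 80.3 CPM in resting cells of Mito-high (1.04) and at 150 and 80.2 CPM in those of Mito-low (0.90). In Mito-low, Ndufb6 (1.27) and Ndufa11 (1.05), a pair of membrane arm subunits, also passed a log2 ratio of 1. At the lower end, Ndufb4 had 123 CPM in cycling and 119 CPM in resting cells of Mito-high (0.05, or −0.06 under TMM) and 109 and 101 CPM in those of Mito-low (0.11, or −0.15 under TMM), close to level. Ndufb2 was split, with 142 and 87.7 CPM in Mito-high (0.70) and 82.2 and 94.5 CPM in Mito-low (−0.20). Ndufab1, the mitochondrial acyl carrier protein, was split as well, with 0.92 in Mito-high and −0.02 (−0.61 to 0.53) in Mito-low. Ndufa3 had 0.42 and 0.58.

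Counted with the whole table in view, 19 of 37 nuclear subunits were at least 1.5-fold higher in cycling than in resting cells of Mito-high and 0 were 1.5-fold lower, where 24.9% of 5332 genes at the same expression floor were higher and 12.5% lower. The floor was a mean of 20 CPM over both groups and 20 UMIs over both. The median log2 ratio of the 37 was 0.59 and that of all genes at the floor 0.13. Above 0 lay 36 of the 37, with Ndufa6 as the exception, against 57.8% of all genes. In Mito-low, 19 of 37 were again at least 1.5-fold higher and 0 lower, against 30.7% and 14.1% of 5419 genes, with a median of 0.60 against 0.22. By position in the enzyme, the higher ones in Mito-high were 3 of 7 core, 4 of 9 matrix arm and 12 of 21 membrane arm subunits, and in Mito-low 4, 3 and 12. Scaled by TMM, which moved the ratios of cycling over resting by −0.11 in Mito-high cells and −0.27 in Mito-low cells, 16 and 12 of the 49 members at the floor were higher and 1 and 0 lower, where the unadjusted CPM gave 22 and 21 higher. All genes under TMM had 19.7% higher and 16.8% lower in Mito-high, and 19.6% and 23.5% in Mito-low. Among cells of 8000 to 16000 UMIs, 9 of 37 nuclear subunits were higher and 0 lower in Mito-high (median 0.46), where 20% of genes were higher and 11.3% lower, so that the share of higher subunits stood near that of all genes. In Mito-low 17 of 36 were higher and 1 lower in that window, from 19 cycling cells, against 28.8% and 18.1% of genes. Among cells of 4000 to 6000 UMIs, with 6 and 4 cycling cells, 8 of the 22 and 14 of the 21 members called on all kept cells had the opposite sign. In the window of 8000 to 16000 UMIs Ndufb8 stood at 0.81, Ndufb7 at 1.02, Ndufc1 at 0.76 and Ndufs8 at 0.74 in Mito-high. Malat1, a nuclear long non-coding RNA, was at 3564 CPM in cycling and 10479 CPM in resting cells of Mito-high, and at 4909 and 14209 CPM in those of Mito-low. Gm42418, a gene model that overlaps ribosomal RNA sequence, was at 984 and 1407 CPM in Mito-high and at 4640 and 8762 CPM in Mito-low, and cytosolic ribosomal protein genes were lower in cycling cells by log2 ratios of −0.30 and −0.46. The part of these in the complex I values was not tested.

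**Figure D2:**
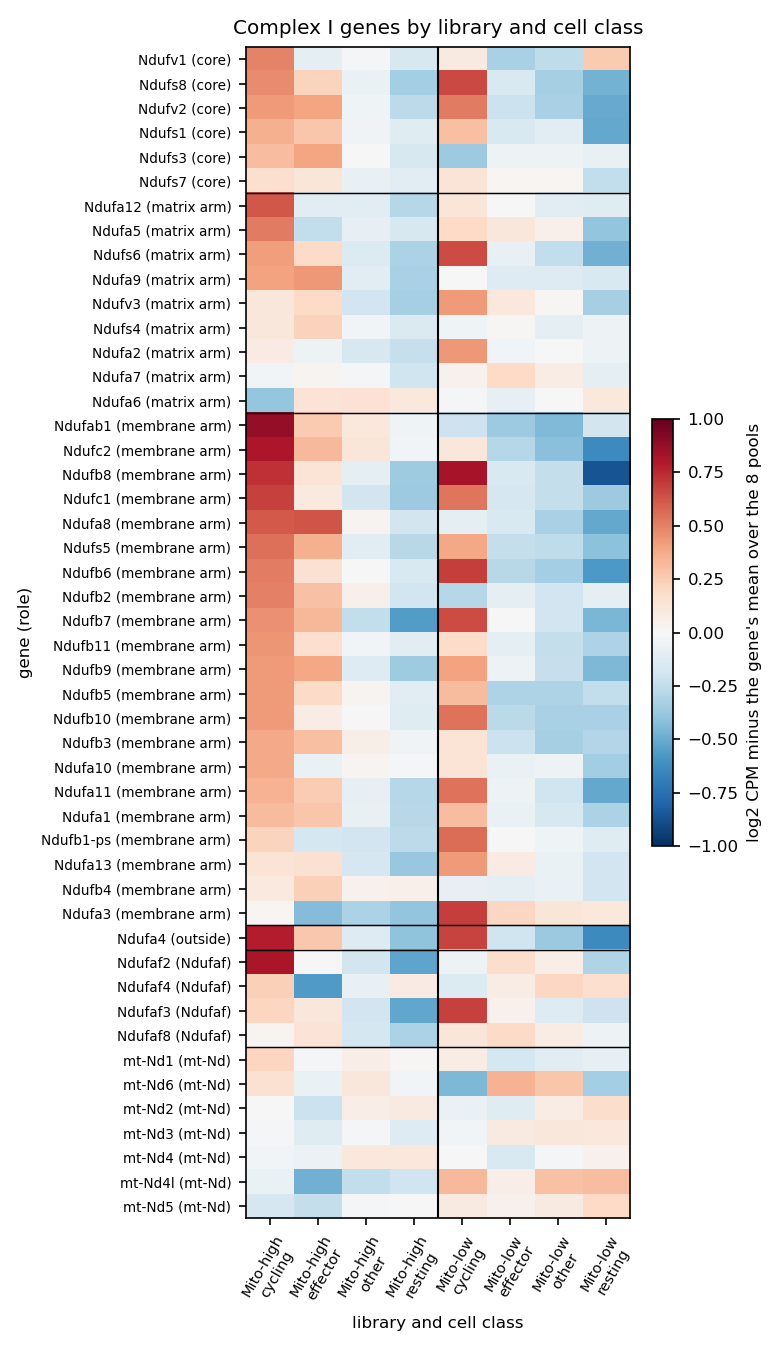
Log2 CPM minus the gene's mean over the 8 pools of library and cell class (colour, on a scale that ends at 1 in either direction), with cycling, effector, other and resting cells of Mito-high left of those of Mito-low (columns) and 48 of the 49 members at the floor as rows, grouped by role (Ndufa4 is the row outside complex I). In the cycling columns of Mito-high and Mito-low Ndufb8 reads 0.73 and 0.82 and Ndufb7 reads 0.46 and 0.65, Ndufa6 reads −0.39 in cycling cells of Mito-high, and the rows of mt-Nd1 to mt-Nd5 other than mt-Nd4l stay between −0.24 and 0.22.

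Effector cells differed less from resting cells. In Mito-high, 6 of 37 nuclear subunits were at least 1.5-fold higher and 0 lower, a share below the 22.5% of all 5299 genes that were higher, with 8.64% lower. Among the 6 were 4 membrane arm subunits: Ndufb7 (0.88), Ndufa8 (0.81), Ndufb9 (0.74) and Ndufs5 (0.64). The other two were Ndufa9 (0.76, but −0.07 under stricter class thresholds) and Ndufv2 (0.65). In Mito-low 1 of 37, Ndufb8 at 0.71 (0.41 to 1.02), was higher, where 23.1% of 5453 genes were higher and 7.06% lower. The median of the 37 was 0.35 in Mito-high, with 0.18 over all genes, and 0.21 in Mito-low, with 0.20 over all genes. The lowest ratios of accessory subunits in Mito-high were those of Ndufa5 (−0.08), Ndufa10 (−0.05), Ndufa3 (−0.04), Ndufa6 (0.03) and Ndufb1-ps (0.09). The core subunit Ndufv1 was at 0.06 there. Low ones in Mito-low, besides Ndufv1, were those of Ndufa6 and Ndufab1 (both −0.18), Ndufb5 (−0.07) and Ndufb2 (0.00). Ndufb1-ps is annotated as a long non-coding RNA. Under TMM, Ndufa6 and Ndufb1-ps in Mito-high also lay below 0, at −0.24 and −0.18, as did the core subunits Ndufv1 (−0.20) and Ndufs7 (−0.03). TMM scaling left 1 of the 49 members higher and 1 lower in Mito-high, where CPM gave 8 and 1 and where 12.2% of genes were higher and 18.2% lower under TMM. In Mito-low it left 0 higher and 1 lower, where CPM gave 2 and 0, against 16.2% and 10.3% of genes. Other cells stood close to resting cells, with 0 of 37 nuclear subunits at least 1.5-fold higher in Mito-high, where 3.12% of genes were higher and 0.388% lower. The same comparison in Mito-low had 1 of 37, Ndufb8 at 0.62, against 15.3% higher and 3.18% lower.

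The promoters shown are those of the nuclear subunits at the ends of 3 comparisons, picked by their ratios: the highest 2 of cycling over resting in Mito-high (Ndufb8 and Ndufc1), of effector over resting in Mito-high (Ndufb7 and Ndufa8) and of Mito-high over Mito-low (Ndufab1 and Ndufc2), and the lowest of cycling over resting in Mito-high (Ndufa6). Each is the 250 bases before the annotated start (RefSeq, GRCm38.p6), written 5′ to 3′ on the gene's strand, in lower case with motif matches in capitals. The motifs searched on both strands were those of NRF1 (GCGCA, any base, then GCGC), ETS factors (CCGGAAG), the E-box (CACGTG) and YY1 (AAGATGGCG), factors known as regulators of respiratory genes or, for the E-box, the site of the Myc family. Ndufb8 lies at chr19:44555443-44555692 on the minus strand, Ndufc1 at chr3:51408956-51409205 on the minus strand, Ndufb7 at chr8:83566508-83566757 on the plus strand, Ndufa8 at chr2:36049339-36049588 on the minus strand, Ndufa6 at chr15:82354292-82354541 on the minus strand, Ndufab1 at chr7:122101849-122102098 on the minus strand and Ndufc2 at chr7:97399753-97400002 on the plus strand.
Ndufb8: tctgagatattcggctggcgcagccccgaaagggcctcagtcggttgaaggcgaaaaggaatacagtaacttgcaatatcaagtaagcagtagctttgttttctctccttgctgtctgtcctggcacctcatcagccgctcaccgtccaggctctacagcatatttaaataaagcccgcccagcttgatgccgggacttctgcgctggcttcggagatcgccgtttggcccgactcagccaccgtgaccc
Ndufc1: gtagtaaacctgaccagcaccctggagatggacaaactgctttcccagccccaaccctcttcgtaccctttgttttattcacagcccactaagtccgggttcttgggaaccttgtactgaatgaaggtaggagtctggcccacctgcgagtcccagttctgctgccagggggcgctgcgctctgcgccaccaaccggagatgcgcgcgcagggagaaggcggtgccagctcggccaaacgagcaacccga
Ndufb7: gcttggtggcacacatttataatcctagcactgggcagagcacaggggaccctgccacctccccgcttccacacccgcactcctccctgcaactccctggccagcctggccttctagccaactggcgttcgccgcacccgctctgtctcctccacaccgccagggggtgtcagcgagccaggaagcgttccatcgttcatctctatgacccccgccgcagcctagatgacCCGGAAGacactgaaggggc
Ndufa8: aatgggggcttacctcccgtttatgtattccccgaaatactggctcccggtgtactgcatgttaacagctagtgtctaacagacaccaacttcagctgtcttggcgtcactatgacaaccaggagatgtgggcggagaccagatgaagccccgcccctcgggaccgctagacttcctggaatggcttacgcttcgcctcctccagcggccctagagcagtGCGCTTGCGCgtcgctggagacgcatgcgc
Ndufa6: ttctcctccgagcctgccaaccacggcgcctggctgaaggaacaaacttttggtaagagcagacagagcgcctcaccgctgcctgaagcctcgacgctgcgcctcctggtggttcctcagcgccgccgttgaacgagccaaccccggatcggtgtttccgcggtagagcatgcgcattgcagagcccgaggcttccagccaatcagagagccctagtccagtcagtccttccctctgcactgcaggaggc
Ndufab1: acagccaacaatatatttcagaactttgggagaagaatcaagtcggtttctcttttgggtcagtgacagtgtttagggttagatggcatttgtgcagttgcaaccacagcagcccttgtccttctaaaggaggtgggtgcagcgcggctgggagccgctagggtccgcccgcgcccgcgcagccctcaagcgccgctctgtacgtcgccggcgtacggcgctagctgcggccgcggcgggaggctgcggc
Ndufc2: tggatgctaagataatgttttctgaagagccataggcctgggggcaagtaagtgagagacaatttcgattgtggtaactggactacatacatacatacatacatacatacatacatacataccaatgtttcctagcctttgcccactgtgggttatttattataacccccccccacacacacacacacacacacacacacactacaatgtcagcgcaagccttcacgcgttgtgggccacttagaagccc
The capitals are an ETS match that begins at −20 in Ndufb7 and an NRF1 match that begins at −30 in Ndufa8. The windows of Ndufb8, Ndufc1, Ndufa6, Ndufab1 and Ndufc2 hold none of the 4 motifs. In the GENCODE positions Ndufb7 starts at chr8:83566671 and Ndufa8 at chr2:36049406. Both matches thus lie before the RefSeq start but inside the gene as GENCODE places it. Of the 47 Nduf genes, 41 had a promoter entry, 33 of them nuclear subunits. A subunit counted as a match if any of its entries matched, while the share of all promoters counts single entries. The shares below are thus not in the same unit. The NRF1 motif was in 6 of these 33 (18.2%: Ndufa5, Ndufa8, Ndufa11, Ndufb4, Ndufs5 and Ndufs6) and in 3.74% of all 32851 promoters. The ETS motif was in 3 (9.09%: Ndufb6, Ndufb7 and Ndufs3) against 6.91% of all, the E-box in 2 (6.06%: Ndufa7 and Ndufv1) against 6.02%, and the YY1 motif in 0 against 0.606%. The 6 subunits with the NRF1 motif ranged in their cycling over resting ratio in Mito-high from Ndufb4 at 0.05 to Ndufs5 at 0.83. A match describes the sequence and does not show binding.

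The 8 Ndufaf assembly factors were expressed at a low level, with a sum of 182 CPM over Mito-high cells and 205 CPM over Mito-low cells. Their sum was 254 CPM in cycling, 215 in effector, 177 in other and 157 CPM in resting cells of Mito-high, and 234, 217, 203 and 190 CPM in those classes of Mito-low. The cycling over resting log2 ratio was 0.69 (0.62 to 0.77) in Mito-high and 0.30 (−0.06 to 0.66) in Mito-low, and the effector over resting ratio was 0.45 (0.27 to 0.63) and 0.19 (−0.01 to 0.40), so the Mito-low intervals reach below 0. The order of classes was nevertheless the same in both libraries, with cycling cells on top and resting cells last. In the window of 4000 to 6000 UMIs, with 6 cycling cells, the cycling over resting ratio of Mito-high turned to −0.65.

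Ndufaf2, a factor of the late steps of assembly related to Ndufa12, differed most between classes of Mito-high among the 4 assembly factors at the floor. It was at 48.5 CPM in cycling, 27.6 in effector, 24.2 in other and 19.1 CPM in resting cells of Mito-high (cycling over resting 1.35, interval 1.15 to 1.55), but at 26.6, 31.0, 28.9 and 22.3 CPM in those classes of Mito-low (0.25, interval −0.92 to 1.33), from 11 UMIs in cycling cells. Among cells of 8000 to 16000 UMIs the Mito-high ratio was 0.32. Ndufaf3, which works with Ndufaf4 in building the ubiquinone module, was at 26.2 CPM in cycling and 15.8 CPM in resting cells of Mito-high (0.73) and at 36.3 and 19.6 CPM in those of Mito-low (0.89). Ndufaf4 did not follow its partner: its cycling over resting ratio was 0.16 in Mito-high but −0.31 in Mito-low, and its level in effector cells of Mito-high was 19.7 CPM, from 25 UMIs, against 31.0 CPM in resting cells (−0.65, interval −1.29 to −0.08). Ndufaf8, which stabilises Ndufaf5, was the most abundant of the family, with 76.9, 82.9, 66.8 and 60.6 CPM in cycling, effector, other and resting cells of Mito-high and 82.2, 86.2, 79.3 and 73.1 CPM in Mito-low. Its cycling over resting ratios were 0.34 and 0.17 and its effector over resting ratios 0.45 and 0.24, with the effector class as the highest in both libraries. Ndufaf1, Ndufaf5, Ndufaf6 and Ndufaf7 stayed under the floor. They act on the membrane arm intermediate (Ndufaf1), as enzymes that modify core subunits (Ndufaf5 and Ndufaf7), and in mt-Nd1 assembly (Ndufaf6), and their levels over all cells were 7.42, 10.4, 13.5 and 8.999 CPM (Ndufaf1, Ndufaf5, Ndufaf7, Ndufaf6) in Mito-high and 7.37, 10.7, 13.9 and 9.15 CPM in Mito-low.

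The 7 mt-Nd subunits are the proton-pumping core. Their summed level was 6531 CPM in cycling, 5856 in effector, 6553 in other and 6479 CPM in resting cells of Mito-high, and 6414, 5833, 6333 and 6555 CPM in those classes of Mito-low. Cycling and resting cells differed by a log2 ratio of 0.01 (0.00 to 0.03) in Mito-high, which turned to −0.10 under TMM and to −0.14 with the total taken without mt-, ribosomal and antigen receptor genes, and by −0.03 (−0.10 to 0.03) in Mito-low. Effector cells had a slightly lower level than resting cells in both libraries, −0.15 (−0.18 to −0.11) in Mito-high and −0.17 (−0.20 to −0.13) in Mito-low. None of the 7 differed by 1.5-fold between cycling and resting cells in either library. Of the effector over resting values, only mt-Nd6 in Mito-low passed that size, at 50.4 CPM against 31.2 CPM (0.69, interval 0.20 to 1.23), with 35 UMIs in the resting cells, while in Mito-high it was −0.03. All mt- genes together made up 3.295% of UMIs in cycling, 3.54% in effector, 3.505% in other and 3.31% in resting cells of Mito-high, and 3.24%, 3.06%, 3.26% and 3.32% in those classes of Mito-low. The filter that kept barcodes with at most 20% mt- UMIs works on these genes too. At a limit of 10%, the cycling class of Mito-low went from 38 to 36 cells and from 2827 to 2816 nuclear subunit UMIs. Its mt-Nd UMIs per nuclear subunit UMI fell from 0.939 to 0.870. The near-level mt-Nd value of that class thus leaned on a few barcodes.

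Within the mt-Nd family, mt-Nd1, mt-Nd4 and mt-Nd2 carried most of the UMIs. mt-Nd1, which forms the entry of the ubiquinone channel, was at 2420.4 CPM in cycling, 2069.5 in effector, 2179 in other and 2103 CPM in resting cells of Mito-high, and at 2192, 1839.6, 1939 and 1965 CPM in those classes of Mito-low. It was the single mt-Nd gene whose level in cycling cells lay above that in resting cells by more than 0.1 in both libraries, with log2 ratios of 0.20 (0.18 to 0.23) in Mito-high and 0.16 (0.04 to 0.27) in Mito-low, which came to 0.09 and −0.11 under TMM. mt-Nd2, mt-Nd4 and mt-Nd5, the antiporter-like subunits that pump protons, had −0.10, −0.14 and −0.16 in Mito-high and −0.24, −0.05 and −0.11 in Mito-low. The small membrane subunits mt-Nd3, mt-Nd4l and mt-Nd6 had 0.11, 0.13 and 0.18 in Mito-high and −0.14, 0.01 and −0.10 in Mito-low. In effector cells the lowest ratio to resting cells was that of mt-Nd2 in both libraries, at −0.31 and −0.29, followed by mt-Nd4l at −0.28 and −0.25. The share of mt-Nd1 in all mt-Nd UMIs was 37.1% in cycling, 35.3% in effector, 33.3% in other and 32.5% in resting cells of Mito-high, and 34.2%, 31.5%, 30.6% and 30.0% in Mito-low, the same order in both.

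Some mt-Nd genes overlap on the mitochondrial genome, and the overlaps are shown because they limit what the counts of mt-Nd4l and mt-Nd6 mean. mt-Nd4l (chrM:9877-10173) and mt-Nd4 (chrM:10167-11544) share 7 bases on the plus strand, in capitals in the first line (mm10, chrM:10154-10186). mt-Nd5 (chrM:11742-13565, plus strand) and mt-Nd6 (chrM:13552-14070, minus strand) share 14 bases with opposite direction, in capitals in the second line (mm10, chrM:13546-13578), where the plus strand is written.
mt-Nd4l and mt-Nd4: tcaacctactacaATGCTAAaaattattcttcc
mt-Nd5 and mt-Nd6: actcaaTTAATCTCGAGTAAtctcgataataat
mt-Nd4l and mt-Nd4 lie on the same strand, so a read within their shared bases fits both genes. Whether the counts of that pair come from separate RNA molecules was not tested. Whether reads were counted by strand is stated in none of the sources used here. Without strand, the reads of an antisense pair such as mt-Nd5 and mt-Nd6 cannot be told apart. Nuclear copies of mitochondrial DNA and processed pseudogenes of Nduf genes, which could also share reads, were not examined.

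Because both levels come from the same cells, the mt-Nd and nuclear sums can be set against each other without the total. Per nuclear subunit UMI there were 0.955 mt-Nd UMIs in cycling, 0.967 in effector, 1.28 in other and 1.40 in resting cells of Mito-high. In Mito-low there were 0.939 in cycling, 1.13 in effector, 1.30 in other and 1.46 in resting cells. Resting cells thus had the highest ratio in both libraries, and the libraries as a whole stood close together, at 1.25 in Mito-high and 1.28 in Mito-low. Cycling cells had the lowest ratio in Mito-low. In Mito-high, the intervals of cycling cells (0.945 to 0.965) and effector cells (0.937 to 0.999) overlapped. Effector cells of Mito-high were below cycling cells under stricter class thresholds (0.823 against 0.956). They were also below them in cells thinned to 2000 UMIs and classed anew (0.804 against 0.974). The ratio of mt-Nd to nuclear UMIs does not depend on how CPM is scaled. Among cells of 8000 to 16000 UMIs it was 0.886 in cycling and 1.35 in resting cells of Mito-high, and 0.847 and 1.34 in those of Mito-low. Among cells of 4000 to 6000 UMIs the order turned, with 1.91 and 3.94 in the cycling classes of Mito-high and Mito-low, which there held 6 and 4 cells.

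**Figure D3:**
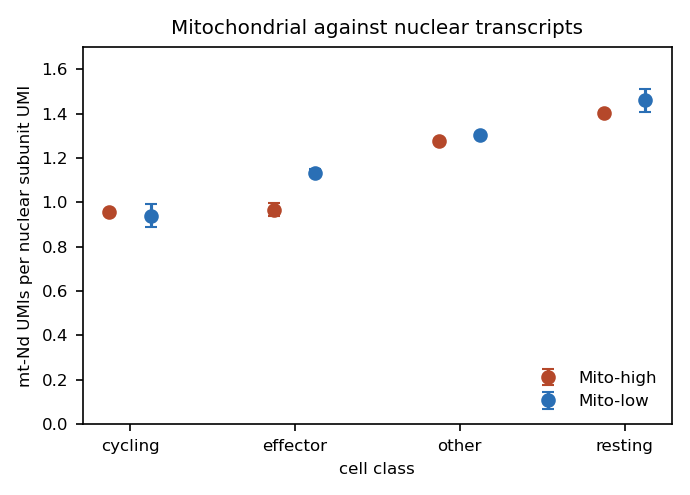
mt-Nd UMIs per nuclear subunit UMI (vertical axis) by cell class (horizontal axis) in Mito-high and Mito-low, with bars that mark the exact 95% counting interval. Cycling cells lie at 0.955 and 0.939 and resting cells at 1.40 and 1.46, and the effector classes of the 2 libraries lie furthest apart, at 0.967 and 1.13.

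Between the dye-bright and the dye-dim library as a whole, complex I transcripts differed little. Nuclear subunits summed to 5221 CPM in Mito-high cells and 4909 CPM in Mito-low cells, a log2 ratio of 0.09 (0.08 to 0.10), which was 0.28 after TMM scaling and −0.07 among cells of 4000 to 6000 UMIs. The Ndufaf sum was 182 against 205 CPM (−0.17, interval −0.21 to −0.14), and turned to 0.02 under TMM. The mt-Nd sum was 6525 against 6260.4 CPM (0.06, interval 0.05 to 0.07). TMM moved all ratios between the whole libraries by 0.19, those of effector over resting by −0.27 in Mito-high and −0.14 in Mito-low. Of 37 nuclear subunits, 2 stood at least 1.5-fold above Mito-low and 0 below it by as much, where 3.16% of 5444 genes were higher and 9.66% lower. Their median log2 ratio was 0.12 and that of all genes −0.14. Above 0 lay 28 of 37, against 32.1% of all genes. Malat1 was at 9589.5 CPM in Mito-high cells and 18093 CPM in Mito-low cells, and Gm42418 at 1458 and 4016 CPM. The gap of Gm42418 was wider in resting cells, with 1407 CPM in those of Mito-high against 8762 CPM in those of Mito-low. The part of either in the other levels was not tested.

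The 2 that passed 1.5-fold were Ndufab1, which besides its place in complex I serves mitochondrial fatty acid synthesis, and Ndufc2, a membrane arm subunit next to mt-Nd2. Ndufab1 was at 118 CPM in Mito-high cells and 77.2 CPM in Mito-low cells (0.61, interval 0.56 to 0.66), and Ndufc2 at 163 and 109 CPM (0.59, interval 0.55 to 0.63). Ndufc2 was higher in Mito-high in each class, by 0.70 in cycling, 0.61 in effector, 0.54 in other and 0.61 in resting cells. Ndufab1 was higher by 1.08, 0.63 and 0.55 in the first 3 classes and by 0.14 (−0.15 to 0.44) in resting cells. Over the alternatives, Ndufc2 lay between 0.28 and 0.78 and Ndufab1 between 0.32 and 0.80, and among cells of 8000 to 16000 UMIs 0 of 37 subunits passed 1.5-fold, where 2.15% of genes were higher and 7.76% lower. Next in order came Ndufb3 (0.39), Ndufa8 (0.37) and Ndufb6 (0.36), all of the membrane arm. Of the core subunits, Ndufv2 was at 0.28, followed by Ndufv1 (0.27), Ndufs8 (0.25), Ndufs1 (0.11) and Ndufs3 (0.07), and Ndufs7 was at −0.07.

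At the lower end stood Ndufa3, a small membrane arm subunit, at 149 CPM in Mito-high cells and 201 CPM in Mito-low cells (−0.43, interval −0.46 to −0.39). It was lower in Mito-high in each class, by −0.67 in cycling, −0.64 in effector, −0.43 in other and −0.50 in resting cells, and between −0.49 and −0.24 over the alternatives. Ndufv3 (−0.20), Ndufa2 (−0.15), Ndufa7 (−0.14) and Ndufa13 (−0.12), the last also known as GRIM-19 and the most abundant nuclear subunit, followed. TMM scaling put Ndufa2, Ndufa7 and Ndufa13 above 0, at 0.04, 0.05 and 0.06, and left Ndufa3 and Ndufv3 below it. All 4 assembly factors at the floor lay below 0 on the CPM scale, with Ndufaf8 at −0.26, Ndufaf4 at −0.19, Ndufaf2 at −0.17 and Ndufaf3 at −0.10, the last pair above 0 under TMM, at 0.02 and 0.09. Most genes lay below 0 in this comparison, with 32.1% of all genes at the floor above it. The median of all genes was −0.14, close to the −0.18 of the 4 factors.

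The counts of the mt-Nd genes, most of which are cut from the same long transcript, did not share 1 direction between the libraries. mt-Nd1 (0.18) and mt-Nd4 (0.12) were higher in Mito-high, mt-Nd2 was level (0.01), and mt-Nd5 (−0.12), mt-Nd3 (−0.15), mt-Nd6 (−0.19) and mt-Nd4l were lower, the first 3 of them at 0.07, 0.03 and 0.00 under TMM, where only mt-Nd4l stayed below 0. mt-Nd4l was at 196 CPM in Mito-high cells and 273 CPM in Mito-low cells, a log2 ratio of −0.48 (−0.51 to −0.45), with −0.40 in cycling, −0.55 in effector, −0.54 in other and −0.52 in resting cells, and between −0.52 and −0.29 over the alternatives. Its share in all mt-Nd UMIs was 2.998% in Mito-high, against 4.36% in Mito-low. By class it was 2.78% to 3.32% in Mito-high and 4.08% to 4.45% in Mito-low. The classes of each side come from 1 library and are not replicates. The share of mt-Nd1 was 33.5% against 30.8%.

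**Figure D4:**
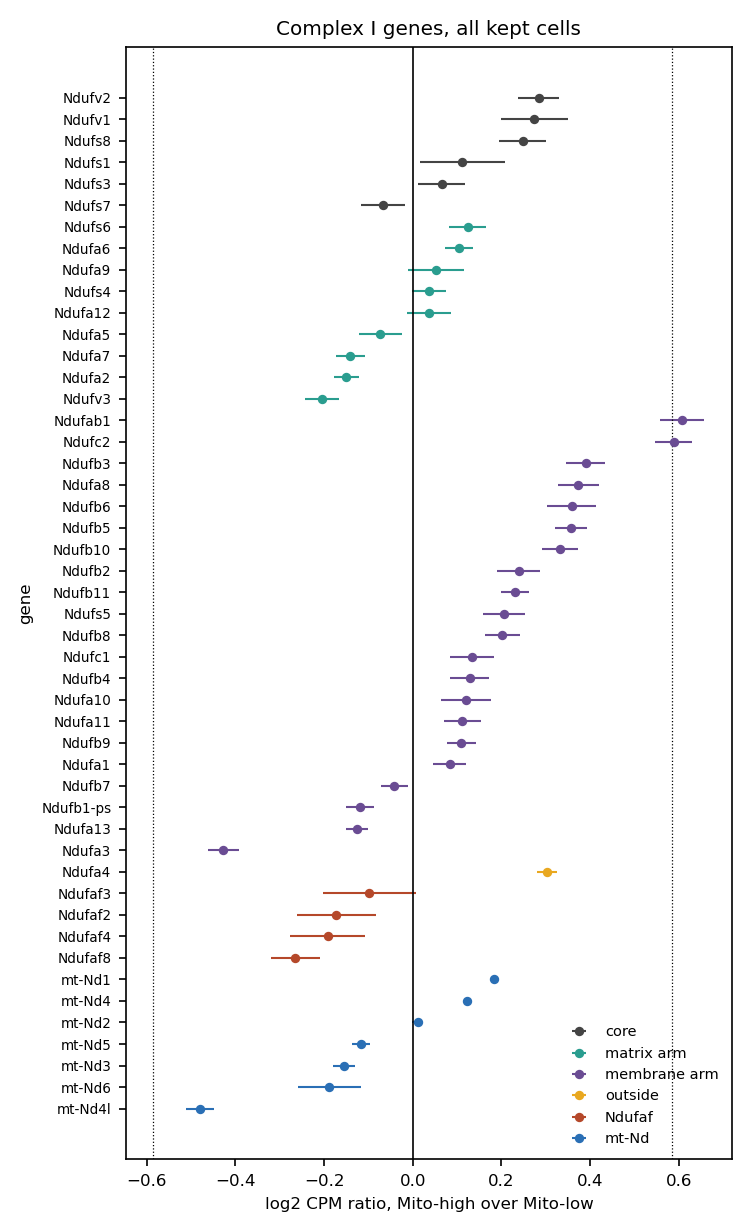
Log2 CPM ratio of Mito-high over Mito-low (horizontal axis) over all kept cells for 48 of the 49 members at the floor (rows), with bars that mark the exact 95% counting interval, dotted lines at 1.5-fold and colours that mark the role (Ndufa4 as outside complex I). Ndufab1 (0.61) and Ndufc2 (0.59) lie furthest to the right, and mt-Nd4l (−0.48) and Ndufa3 (−0.43) furthest to the left.

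Within single classes the nuclear sum in CPM differed most between the libraries in effector cells. Set over Mito-low, Mito-high had a log2 ratio of 0.00 (−0.05 to 0.06) in cycling, 0.23 (0.20 to 0.27) in effector, 0.08 in other and 0.04 in resting cells. TMM scaling moved these ratios by 0.18, 0.03, 0.16 and 0.09, which brings other cells close to effector cells. In effector cells 5 of 37 nuclear subunits were at least 1.5-fold higher and 1 lower, where 5.82% of genes were higher and 10.1% lower. The 5 were Ndufa8 (0.78), Ndufab1 (0.63), Ndufv2 (0.61), Ndufc2 (0.61) and Ndufs5 (0.60), and the lower one was Ndufa3. In cycling cells 5 were higher and 1 lower, against 12.1% and 17.1% of genes, with Ndufab1 (1.08), Ndufb2 (0.79), Ndufa8 (0.70), Ndufc2 (0.70) and Ndufs3 (0.67) as the higher ones and Ndufa3 as the lower one. Of these, Ndufs3 turned to −0.87 in cells thinned to 2000 UMIs. Classes were called anew on the thinned counts there, which left 236 cycling cells in Mito-high and 11 in Mito-low. The few cycling cells of 4000 to 6000 UMIs gave −0.88 for both Ndufab1 and Ndufb2 and 0.44 for Ndufa3. In effector cells of that window Ndufab1 had −0.25. The corresponding counts were 0 and 0 in other cells, where 2.23% of genes were higher and 7.84% lower, and 1 and 0 in resting cells, where 2.73% were higher and 4.27% lower. The Ndufaf sum had 0.12 in cycling, −0.02 in effector, −0.19 in other and −0.27 in resting cells, and the mt-Nd sum 0.03, 0.01, 0.05 and −0.02. The makeup of the libraries by class differed, with resting cells at 21.9% in Mito-high, against 1.58% in Mito-low, and effector cells at 1.13% against 13.03%. With both libraries given the same makeup, the mean share of each class over the 2, the mt-Nd ratio of the whole libraries was 0.04.

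The same order was seen cell by cell. With each cell thinned to 2000 UMIs and its class from the full counts kept, the median number of nuclear subunit UMIs was 13 in cycling, 12 in effector, 10 in other and 9 in resting cells of Mito-high, and 12, 10, 9 and 9 in those classes of Mito-low. The means with their SD over cells were 13.5 ± 4.67, 12.2 ± 4.47, 9.95 ± 3.97 and 9.13 ± 3.56 in Mito-high and 12.3 ± 4.96, 10.2 ± 3.83, 9.58 ± 3.81 and 9.36 ± 3.29 in Mito-low, so that cells of different classes overlapped widely. Without thinning, the means per 2000 UMIs were 13.5, 11.8, 9.82 and 9.06 in Mito-high and 13.2, 10.2, 9.44 and 8.73 in Mito-low. Shallower cells were left out: 0 cycling, 0 effector, 128 other and 11 resting cells of Mito-high and 0, 23, 463 and 5 of Mito-low. The Ndufaf factors were at 0 in most thinned cells, in 63.5% of cycling and 73.2% of resting cells of Mito-high and in 52.6% and 70.6% of those of Mito-low. The median of mt-Nd UMIs was 12 in cycling and 12 in resting cells of both libraries, and 10 and 11 in effector cells of Mito-high and Mito-low.

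**Figure D5:**
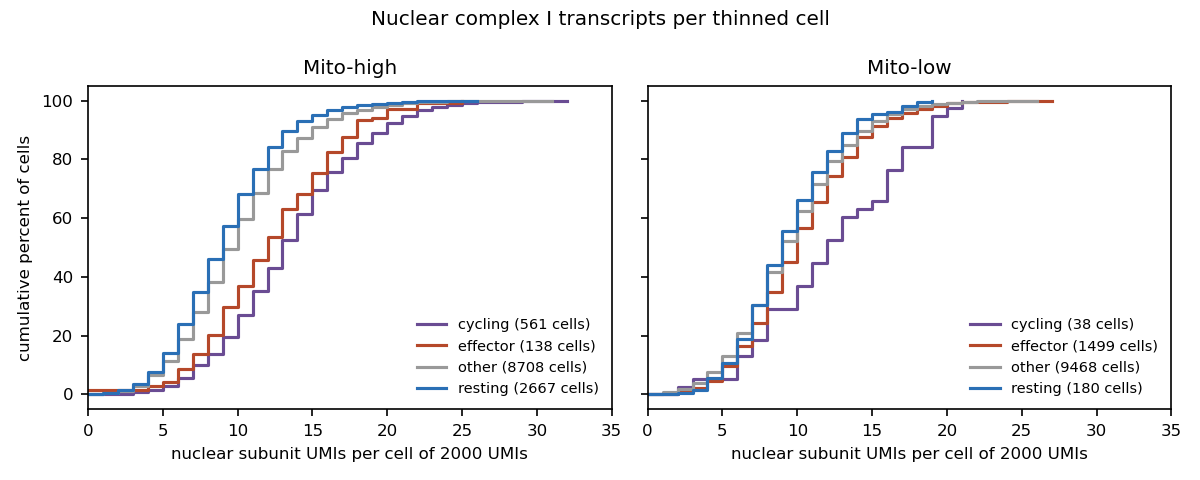
Cumulative percent of cells (vertical axis) with up to a given number of nuclear subunit UMIs after thinning each cell to 2000 UMIs (horizontal axis), as a step line each for cycling, effector, other and resting cells of each library. The medians are 13, 12, 10 and 9 in Mito-high and 12, 10, 9 and 9 in Mito-low, and the distributions overlap.

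Genes of the other respiratory complexes stood beside complex I in the same cells. The summed cycling over resting log2 ratio was 0.46 in Mito-high and 0.55 in Mito-low for the nuclear genes of complex III, 0.65 and 0.81 for complex IV, and 0.61 and 0.60 for ATP synthase. At least 1.5-fold higher were 5 of 9 complex III genes, 9 of 11 of complex IV and 9 of 17 of ATP synthase in Mito-high, and 6, 9 and 7 in Mito-low, where 24.9% and 30.7% of all genes were. One complex IV gene was at least 1.5-fold lower in Mito-high: Cox7a2l, known for its role in joining complexes III and IV, at −0.73. Cox5a and Cox8a, structural subunits of cytochrome c oxidase, had 1.21 and 1.05 in Mito-high. Uqcr10, a small subunit of complex III, had 1.12 and 0.95 in Mito-high and Mito-low, and Atp5j, a subunit of the stalk of ATP synthase, 0.95 and 1.20. Mitochondrial ribosomal proteins, which translate the mt-Nd transcripts, had 0.70 and 0.68 in sum, with 47 of 69 higher in Mito-high and 41 of 66 in Mito-low. The 6 other mitochondrially encoded protein genes had −0.01 and −0.04, as near to level as the mt-Nd genes.

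Further genes that build or parallel complex I were measured as well. Of the assembly factors without an Ndufaf symbol, 2 of 5 at the floor were at least 1.5-fold higher in cycling than in resting cells of Mito-high and 4 of 5 in Mito-low, against the 24.9% and 30.7% of all genes, which also apply to the lists that follow. Aifm1, an import factor for such subunits, had 0.91 and 1.16, and Lyrm2, an assembly factor of the matrix arm, 0.64 and 1.83. Of the enzymes that feed ubiquinone by other routes, 3 of 5 were higher in Mito-high and 3 of 4 in Mito-low, with Sdhd, a membrane anchor of succinate dehydrogenase, at 1.34 and 1.88. Of the factors of mitochondrial transcription and RNA handling, 2 of 7 were higher in Mito-high, a share close to that of all genes, and 4 of 8 in Mito-low, with medians of −0.01 and 0.52. The named ones were Slirp, which stabilises mitochondrial mRNA, at 0.90 and 1.08, and Tfam, which packages mitochondrial DNA, at 0.83 and 0.89, and Tfb2m, a mitochondrial transcription factor, at −0.39 and −0.18.

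Ndufa4, once assigned to complex I and now to cytochrome c oxidase, was above each nuclear complex I subunit in every class but the resting cells of Mito-low, where Ndufa13 was at 341 CPM. It was at 867 CPM in cycling, 607 in effector, 461 in other and 381 CPM in resting cells of Mito-high, and at 805, 439, 389 and 323.5 CPM in those classes of Mito-low. Its cycling over resting ratio of 1.19 (1.14 to 1.23) in Mito-high lay above that of each of the 37 subunits, and in Mito-low, at 1.31 (1.10 to 1.53), below Ndufb8 alone. Over the alternatives it lay between 0.40 and 1.23 in Mito-high. Effector cells had 0.67 and 0.44 relative to resting cells, and Mito-high over Mito-low gave 0.30 (0.28 to 0.33). Ndufa4l2, the paralogue known for its induction in hypoxia, had 0 UMIs in both libraries, and a count of 0 allows up to 0.0334 CPM in Mito-high cells and 0.0496 CPM in Mito-low cells.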

How the data were processed

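Droplet libraries of the 5′ ends of transcripts were made with a Chromium 5′ kit, per the labels' protocols. The deposited matrices hold UMI counts per gene and barcode, made with Cell Ranger 7.1.0 per the file headers, on mm10 per the submitters' processing notes, which also name Seurat 4.3.0.1. Not given in the sources used here are annotation release, intronic reads, strand and barcode filter. The labels state 12000 sorted cells per library, and the files hold 12352 Mito-high and 11901 Mito-low barcodes with 89996794 and 60688904 UMIs.

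Barcodes with at least 500 genes and at most 20% mt- UMIs were kept (12217 and 11679, at medians of 6132 and 4668 UMIs). Each kept barcode had 1 class, and 4 Mito-high and 3 Mito-low barcodes that were both resting and effector had none. No doublet caller was run. UMIs were summed per library and class and scaled to 1000000 (CPM), without a pseudocount. A UMI counts a molecule at its 5′ end, so levels were not divided by length. Sums have exact Poisson, and ratios exact conditional-binomial, 95% intervals. Counting error alone is what these intervals cover. As each group had 1 library, no test was run and no p-value or SE is given, and 1.5-fold describes size only.

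Members and gene lists were chosen with earlier results of these data known. One core subunit is counted in every sum and count but not reported here by itself. Named are the other core, all mt-Nd and Ndufaf genes, the 5 highest and 5 lowest other members of each main comparison, and up to 3 genes of each further list; others were chosen after their values were seen. The scripts were tested on simulated data. Gene positions came from GENCODE vM21 (54 members matched) and promoters from RefSeq. Software was Python 3.11.15, numpy 2.4.6, scipy 1.17.1, pandas 2.3.3, matplotlib 3.10.9 and, for TMM, edgeR 4.0.16 under R 4.3.3. Alternatives covered scaling, cell filters, class rules and depth windows.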

Additional observations from a re-analysis of the deposited data

Results flagged for a closer look

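The mt-Nd sum in other over resting cells had a log2 ratio of 0.016 in Mito-high but −0.050 in Mito-low, opposite directions in the 2 libraries, and this difference was not tested. The 6 other mitochondrially encoded protein genes also had opposite directions: effector over resting gave 0.15 in Mito-high but −0.11 in Mito-low, and other over resting 0.10 and −0.023. These differences were not tested either.

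The barcodes left out by the filters held mt-Nd RNA far above the kept cells. Part of this is fixed by the rule, which leaves out barcodes by a mt- share that includes the mt-Nd genes. Barcodes left out for their mt- share and for too few genes were pooled, so the level of either kind is not shown. In the 135 Mito-high barcodes the mt-Nd genes were at 84116 CPM (8455 of 100516 UMIs), and in the 222 Mito-low barcodes at 31538 CPM (5131 of 162694 UMIs), against 6525 and 6260.4 CPM in kept cells. Nuclear subunits were at 766 and 1008 CPM there. Of these barcodes, 15 in Mito-high and 13 in Mito-low were left out for their mt- share, and 120 and 209 for too few genes.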

How the results depend on the processing

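Values are log2 ratios of the summed genes. In thinned cells the classes were called anew on the thinned counts. That left 236 cycling and 54 effector cells in Mito-high and 11 and 764 in Mito-low. Among cells of 4000 to 6000 UMIs, with 6 and 4 cycling cells, cycling over resting turned to −0.65 for Ndufaf in Mito-high and to −0.22 for nuclear subunits in Mito-low. The other values there were −0.42 for Ndufaf, 0.021 for mt-Nd and −0.065 for nuclear subunits in Mito-high over Mito-low, and in Mito-high 0.55 (mt-Nd) and 0.15 (nuclear) for cycling and −0.35 (mt-Nd) and 0.31 (nuclear) for effector over resting. A window of 8000 to 16000 UMIs, chosen after seeing the data, gave 0.13 for mt-Nd in Mito-high over Mito-low, −0.16 (mt-Nd) and 0.44 (nuclear) for cycling over resting in Mito-high, and for effector over resting −0.055 (mt-Nd) and 0.35 (nuclear) in Mito-high and −0.090 (mt-Nd) in Mito-low. In Mito-high over Mito-low, Ndufaf, mt-Nd and nuclear subunits came to 0.016, 0.25 and 0.28 under TMM, −0.038, 0.19 and 0.22 with the total without mt-, ribosomal and antigen receptor genes, −0.29, 0.036 and 0.042 in thinned cells, and −0.26, 0.017 and 0.045 as a mean of each cell's share. With the same makeup by class given to both libraries, the mt-Nd value was 0.038. For mt-Nd, cycling over resting in Mito-high and effector over resting in Mito-high and Mito-low came to −0.10, −0.41 and −0.31 under TMM, −0.14, −0.35 and −0.39 with the reduced total, and −0.083, −0.46 and −0.23 in thinned cells. The mean of shares gave −0.039 and −0.21 for the Mito-high pair, and stricter classes −0.38 for effector cells. For nuclear subunits the same series was 0.45, 0.12 and 0.056 under TMM and 0.42, 0.19 and −0.030 with the reduced total. Thinned cells gave 0.51 for cycling and 0.10 for Mito-low effector cells, and overlapping classes 0.52 for cycling cells. A ratio was called reversed only where it was at least 1.5-fold as reported and changed sign. Any other ratio was called moved if it left the counting interval of the reported value, whether or not its sign changed. A count was called moved if it changed by more than 1.5-fold, or to or from 0. Of the sums in these comparisons, 47 values moved and 49 did not. Over all results 159 moved, 265 did not and the first 2 named above reversed. Several smaller ratios given above also changed sign. At least 1000 genes and leaving out barcodes with B cell markers moved none, and a mt- share of at most 10% moved 3. Of 74 member values past 1.5-fold, 26, 8, 3 and 1 changed sign in the 4000 to 6000 window, thinned cells, the 8000 to 16000 window and stricter classes, and 0 under the other alternatives. Under 1.5-fold in size came 28, 23, 32 and 17 of the 74 in those 4, 27 under TMM, 26 with the reduced total, 9 with overlapping classes, 7 as a mean of shares and 1 at a mt- share of at most 10%. Cycling cells of Mito-low (38) and effector cells of Mito-high (138) set the precision. The cause of these shifts was not tested. No paired analysis was possible because each group had 1 library.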

Other observations

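Some genes outside complex I differed more between the libraries than its members. Sdhd was at 57.7 CPM in Mito-high cells and 22.7 CPM in Mito-low cells (log2 ratio 1.35), and Myc, a growth regulator, at 46.5 and 23.1 CPM (1.01). Gabpb1, a subunit of the ETS-family factor NRF2/GABP that acts on respiratory genes, was at 91.1 and 169 CPM (−0.90), and Atp5md, a small subunit of ATP synthase, at 234 and 394 CPM (−0.75). Of the mitochondrially encoded genes, mt-Atp8 and mt-Atp6, which overlap on the mitochondrial genome, had −0.39 and 0.27. The counts of these 2 subunits of ATP synthase thus stood on opposite sides of 0, as those of mt-Nd4l and mt-Nd4 did. Whether the counts of either overlapping pair come from separate RNA molecules was not tested.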
